A study of Mus musculus with 18 samples.

Results

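The genes described here are 10 genes of neutrophil maturation and of the secondary (specific) granule: S100a8, S100a9, Ltf, Lcn2, Camp, Ngp, Retnlg, Chil3, Cxcr2 and Wfdc21. They were chosen by name, as the rows of the deposited count table whose Ensembl identifier carries one of these symbols in GENCODE M21, and make up 10 of its 54838 genes. The study sequenced total RNA and polysome-bound RNA, the messages carried by several ribosomes at once, from myeloid-derived suppressor cells (MDSC) and from bone marrow of wild-type C57BL/6 mice. MDSC are immature myeloid cells that restrain T cells. They were differentiated from bone marrow in culture and sorted after 5 days. The population called LY6G was high in CD11b and Ly6G and intermediate in Ly6C. The population called LY6C was high in CD11b, negative for Ly6G and high in Ly6C. Both were plated after the sort, and collected on the following day after treatment with cycloheximide, which holds ribosomes on the message. Polysomes were isolated on sucrose gradients. The third kind of sample, BM, was uncultured marrow flushed from the femurs of 3 mice, with its red cells lysed; whether each BM library is 1 mouse is not stated. Each population gave 3 polysomal and 3 total libraries, numbered 2, 3 and 6 for the sorted populations and 1, 2 and 3 for BM, and the series describes the replicates as independent biological ones.

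Neutrophils build their granules in order as they mature. The primary granule proteins are made by promyelocytes, the secondary granule proteins (lactotransferrin, lipocalin 2, cathelicidin and neutrophilic granule protein among them) by myelocytes and metamyelocytes, and the last genes to come on include the chemokine receptor Cxcr2. S100a8 and S100a9 encode the 2 subunits of calprotectin, a major protein of neutrophil cytosol and a ligand of Toll-like receptor 4.

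Levels are CPM, read counts scaled to library size with TMM factors, a log2 difference is the fitted difference of edgeR's quasi-likelihood model over all 18 libraries with its standard error, and a gene was called at a Benjamini-Hochberg adjusted p under 0.05 over the 14181 genes tested. All 10 genes passed the filter on low counts and were tested. Depth differed strongly between populations: total counts ran from 8559897 to 26225431 a library, but counts of protein-coding genes from 3236711 to 19740255 in sorted cells, from 274914 to 598151 in BM polysomal RNA and from 54944 to 76341 in BM total RNA. The 10 genes together held 19097 to 222262 counts in a sorted-cell library, 3107 to 8961 in a BM polysomal library and 328 to 437 in a BM total library. Values in BM total RNA are therefore the least precise. Mitochondrial rRNA took 0.313 to 30.6% of the counts of a sorted-cell library, 31.0 to 43.7% in BM polysomal and 57.1 to 65.8% in BM total RNA. Of the protein-coding counts, the 10 genes together held 0.809% ± 0.129 in LY6G polysomal and 0.653% ± 0.203 in LY6G total RNA. Their share was 1.59% ± 1.10 in LY6C polysomal and 1.19% ± 1.03 in LY6C total RNA. In BM their share was 1.24% ± 0.228 in polysomal and 0.583% ± 0.027 in total RNA (SD, n = 3 in each group).

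The Ly6g message did not separate the populations sorted by Ly6G. Ly6g averaged 5.01 ± 5.80 CPM in LY6G polysomal and 4.03 ± 4.07 CPM in LY6G total RNA, against 3.08 ± 1.21 and 3.38 ± 1.34 CPM in the same fractions of LY6C. BM had 6.77 ± 2.63 CPM in polysomal and 1.92 ± 2.08 CPM in total RNA. The LY6G and LY6C ranges overlapped in both fractions. Erythroid and stromal markers separated sorted cells from BM. The 6 erythroid markers summed to 0.063 to 6.88 CPM in sorted cells and to 424 to 990 CPM in BM. The 5 stromal markers summed to 34.4 to 442 CPM in sorted cells and to 1993 to 6825 CPM in BM. Some other marker sums overlapped in polysomal RNA. For 4 megakaryocyte markers they were 14.2 to 342 CPM in LY6C and 119 to 188 CPM in BM. For 4 monocyte markers they were 267 to 921 CPM in LY6C and 168 to 319 CPM in BM. Fewer cells of a type and less RNA per cell cannot be told apart in such bulk samples, and neither can the effects of sorting and of culture in the comparisons with BM.

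**Figure D1:**
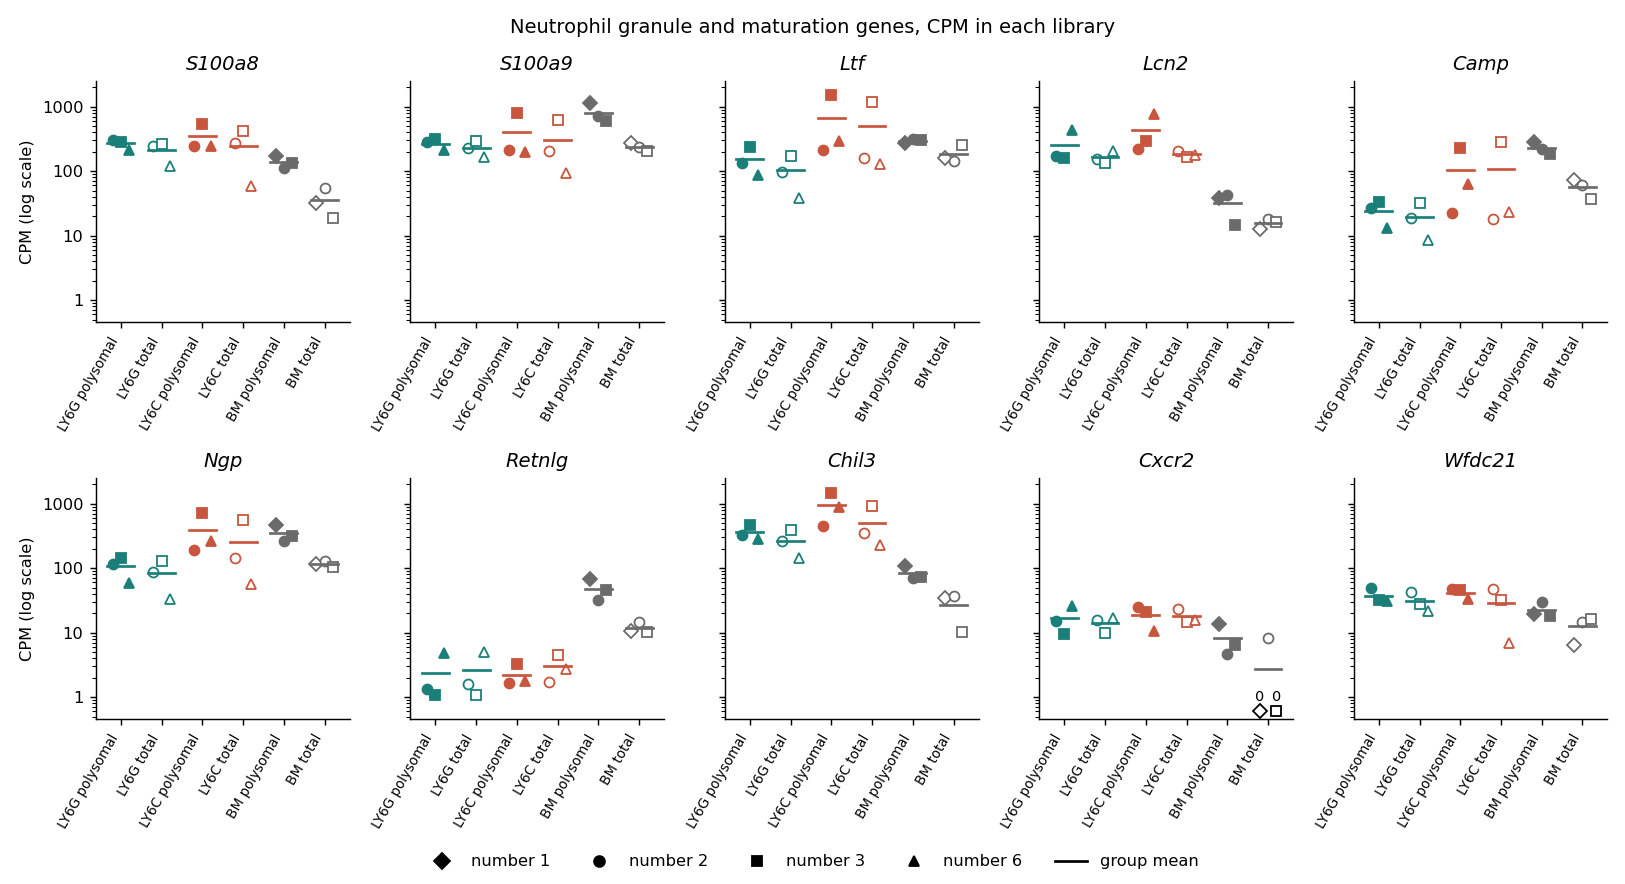
CPM of the 10 genes in each of the 18 libraries on a log scale that all panels share, with filled symbols for polysomal and open symbols for total RNA, the symbol's shape for the library's number and a bar for the mean of a group's 3 libraries. Lcn2 and Chil3 sit higher in all sorted-cell libraries than in BM, Retnlg sits lower, and the LY6C libraries of number 3 stand above the other sorted-cell libraries for Ltf, Camp and Ngp; the 2 BM total libraries with 0 Cxcr2 counts are drawn at the bottom and marked 0.

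Against BM the 10 genes were called in both directions. In polysomal RNA, LY6G cells had Lcn2 and Chil3 called higher and S100a9, Camp and Retnlg called lower, beside 37.5% of all genes (22.1% higher and 15.3% lower). LY6C polysomal RNA had Lcn2 and Chil3 called higher and Retnlg called lower, beside 31.4% of all genes (20.2% higher and 11.2% lower). In total RNA, LY6G cells had 4 of the 10 genes called higher, S100a8, Lcn2, Chil3 and Cxcr2, and 1 called lower, Retnlg, where 30.8% of all tested genes were called (21.5% higher and 9.39% lower). LY6C cells had the same 4 called higher and none called lower in total RNA, where 27.9% of all genes were called (20.5% higher and 7.4% lower). In each of the 4 comparisons 3 to 5 of the 10 genes were called. For LY6G the number called was 3 in polysomal RNA without LY6G number 2 or 6, and 3 in total RNA without LY6G number 2 or BM number 1 or 3. In polysomal RNA 4 of the 10 had all LY6G libraries above all BM libraries and 5 had them below, beside 41.1% and 19.5% of all tested genes, and for LY6C 4 lay above and 1 below, beside 34.7% and 14.0%. In total RNA 5 lay above and 2 below in LY6G, beside 54.2% and 8.45% of all genes, and 4 above and 1 below in LY6C, beside 48.5% and 6.14%. The median log2 difference over the 10 in polysomal RNA was -0.11 for LY6G minus BM and 1.04 for LY6C minus BM, against 0.45 and 0.52 over all tested genes. The medians in total RNA were 0.61 for LY6G and 1.30 for LY6C, against 1.63 and 1.64 over all genes. The medians of all genes rest on genes with no count in a BM group, 4682 of 14181 for LY6G minus BM in total RNA. With such genes set at the bound that 3 counts over the group allow, the medians of all genes in polysomal RNA were 0.03 for LY6G and 0.10 for LY6C. In total RNA they were -0.17 for LY6G and -0.08 for LY6C. None of the 10 genes had 0 counts over a whole group.

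**Figure D2:**
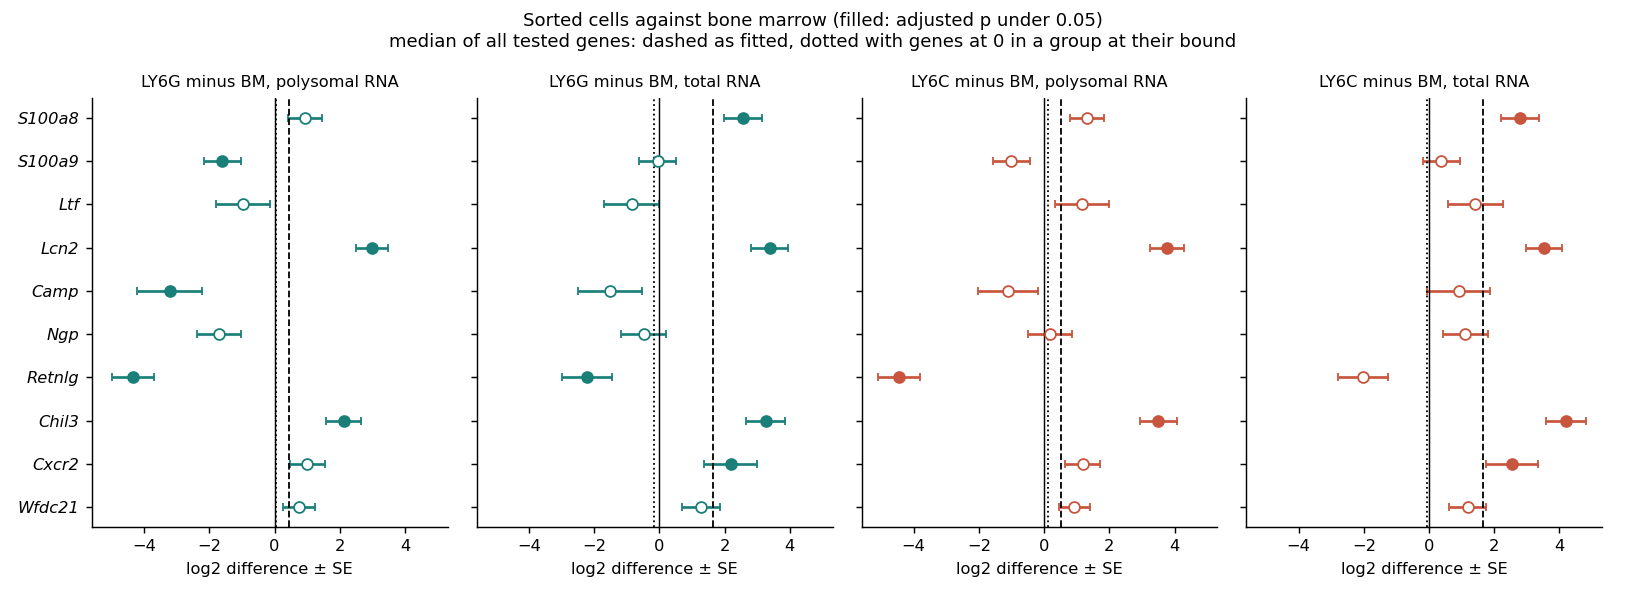
Log2 difference of each gene with its standard error, for LY6G minus BM on the left and LY6C minus BM on the right, polysomal before total RNA, filled where the adjusted p was under 0.05. Lcn2 and Chil3 are filled to the right of 0 in all 4 panels, Retnlg lies to the left of 0 in all 4 and is filled in 3; the dashed line is the median of all tested genes as fitted and the dotted line the same with genes at 0 in a group set at their bound.

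S100a8 (ENSMUSG00000056054, chromosome 3, 90668978 to 90670035 on the plus strand, build GRCm38) and S100a9 (ENSMUSG00000056071, chromosome 3, 90692632 to 90695721 on the minus strand) lie 22.6 kb apart. Their proteins act as a pair, while the calls against BM were not the same for their messages. S100a8 had 306, 288 and 213 CPM in the LY6G polysomal libraries 2, 3 and 6 and 249, 541 and 249 CPM in the LY6C ones, against 173, 113 and 135 CPM in the BM polysomal libraries 1, 2 and 3. In total RNA it had 247, 264 and 122 CPM in LY6G and 273, 413 and 58.9 CPM in LY6C, against 31.8, 55.7 and 18.6 CPM in BM. Every sorted-cell library was above every BM library of its fraction. In polysomal RNA the log2 difference was 0.94 (SE 0.52, adjusted p = 0.160) for LY6G minus BM and 1.31 (SE 0.52, adjusted p = 0.0636) for LY6C minus BM by edgeR's quasi-likelihood test, and neither passed. The LY6C difference passed under 5 other fits, with an adjusted p of 0.0305 by DESeq2 and, by edgeR, 0.0484 with median-ratio factors, 0.00583 with no filter on low counts, 0.0316 with the compared groups alone and 0.00593 with the number as a block. The LY6G difference passed by edgeR with no filter (adjusted p = 0.0263), the compared groups alone (0.0119) and the number as a block (0.0175). In the fits against BM, here and below, the block joins sorted-cell and BM libraries of the same number, which are not shown to be paired. In total RNA the log2 difference was 2.56 (SE 0.58, adjusted p = 0.00212) for LY6G and 2.80 (SE 0.58, adjusted p = 0.00124) for LY6C minus BM by edgeR's quasi-likelihood test, and both passed.

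S100a9 was called higher than BM in none of the 4 comparisons. It had 281, 312 and 212 CPM in LY6G polysomal RNA and 212, 804 and 196 CPM in LY6C polysomal RNA, against 1122, 705 and 607 CPM in BM polysomal RNA. The total libraries had 227, 297 and 164 CPM in LY6G and 205, 626 and 92.9 CPM in LY6C, against 269, 236 and 209 CPM in BM. The total libraries overlapped, while all 3 LY6G polysomal libraries lay below all 3 BM ones, and of the LY6C polysomal libraries number 3 reached into the BM range. The log2 difference was -0.05 for LY6G and 0.37 for LY6C minus BM in total RNA, with edgeR adjusted p of 0.945 and 0.652. In polysomal RNA it was -1.60 (SE 0.58, adjusted p = 0.0353) for LY6G minus BM and -1.01 (SE 0.57, adjusted p = 0.188) for LY6C minus BM by edgeR. The LY6G polysomal call was lost when single libraries were left out: the adjusted p was 0.0824, 0.0658 and 0.109 by edgeR without LY6G number 2, 3 or 6, and 0.124 and 0.0534 without BM number 1 or 2. It was lost with the number as a block too, at -1.06 (adjusted p = 0.0575, edgeR). Without the LY6C library of number 3 the LY6C polysomal difference was -1.96, with an adjusted p of 0.0121 by edgeR.

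The ratio of S100a8 to S100a9 counts within a library does not depend on the scaling of libraries. It was 1.09, 0.924 and 1.01 in the LY6G polysomal libraries 2, 3 and 6 and 1.09, 0.891 and 0.741 in the LY6G total ones. LY6C had 1.18, 0.674 and 1.27 in polysomal and 1.33, 0.659 and 0.634 in total RNA. BM had 0.154, 0.160 and 0.222 in its polysomal libraries 1, 2 and 3 and 0.118, 0.236 and 0.0891 in its total libraries, where S100a8 rested on 15, 34 and 9 counts. The 12 sorted-cell libraries, from 0.634 to 1.33, thus did not overlap the 6 BM libraries, from 0.0891 to 0.236. Pairs of genes with such a gap were common: 27.6% of the 8952796 pairs among the 4232 genes counted in all 18 libraries showed one, and 17 of the 36 pairs among the 9 genes of this group that had no 0 count.

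**Figure D3:**
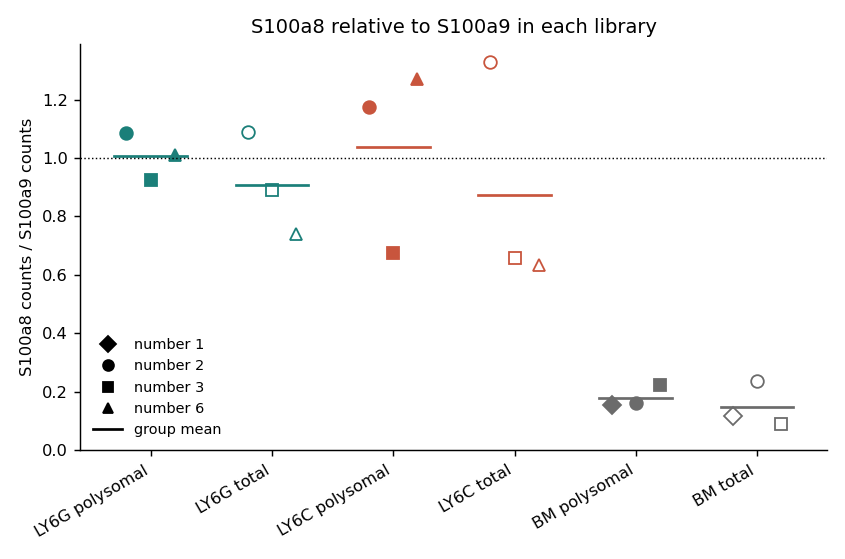
Counts of S100a8 divided by counts of S100a9 in each library, filled for polysomal and open for total RNA, with the mean of a group's 3 libraries as a bar and equality as a dotted line. All 12 sorted-cell libraries lie at or above 0.634 and all 6 BM libraries at or below 0.236.

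The promoters of this pair are shown because these neighbouring genes had different calls against BM. They are RefSeq windows on GRCm38.p6 from 250 bases before to 50 bases after the gene's start as annotated by RefSeq, chr3:90668821-90669120 on the plus strand for S100a8 and chr3:90695672-90695971 on the minus strand for S100a9, each written 5′ to 3′ along its gene. That start can differ from the end of the GENCODE gene span given here. Capitals mark matches, on either strand, to the core that C/EBP factors bind, TTNNGNAA, N being any base. C/EBP factors drive the granule genes of myeloid cells.
S100a8: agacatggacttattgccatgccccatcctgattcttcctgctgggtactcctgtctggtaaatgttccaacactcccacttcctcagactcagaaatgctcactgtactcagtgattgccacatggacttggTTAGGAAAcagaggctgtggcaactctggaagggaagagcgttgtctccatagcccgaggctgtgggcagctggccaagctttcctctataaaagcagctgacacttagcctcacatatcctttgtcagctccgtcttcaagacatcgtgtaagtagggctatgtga
S100a9: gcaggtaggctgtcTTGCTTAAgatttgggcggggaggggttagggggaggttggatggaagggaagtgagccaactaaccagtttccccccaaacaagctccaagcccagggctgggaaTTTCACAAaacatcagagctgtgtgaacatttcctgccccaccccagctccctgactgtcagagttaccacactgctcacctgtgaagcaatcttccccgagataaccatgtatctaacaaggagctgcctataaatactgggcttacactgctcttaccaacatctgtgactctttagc
The S100a8 window held 1 such match, starting 117 bases before the start on the plus strand, and the S100a9 window held 2, at 236 and 130 bases before the start, both on the minus strand. Of the 9 genes of the group with a RefSeq window (Wfdc21 had none), 7 held the C/EBP core, beside 40.7% of all 32851 windows of this length. GAGGAA, a core found in PU.1 sites, was in 4 of the 9 windows beside 28.3% of all, and TATAAA, the TATA box, in 3 of the 9 beside 13.6% of all, both strands searched. S100a8 held GAGGAA 2 times and a TATAAA that began 30 bases before its start. The TATAAA of S100a9 began at position 1 relative to its start, and that of Chil3 began 3 bases before its start.

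Lcn2 and Chil3 were the genes most clearly above BM. Lcn2 (ENSMUSG00000026822, chromosome 2, 32384633 to 32388252, minus strand) encodes lipocalin 2, which binds bacterial siderophores and is stored in the secondary granule. Its polysomal libraries had 169, 159 and 429 CPM in LY6G (numbers 2, 3 and 6) and 221, 294 and 779 CPM in LY6C, against 38.5, 42.8 and 14.8 CPM in BM (numbers 1, 2 and 3). Total RNA had 154, 132 and 208 CPM in LY6G and 207, 165 and 177 CPM in LY6C, against 12.7, 18.005 and 16.5 CPM in BM. All sorted-cell libraries were above all BM libraries, and number 6 was the highest polysomal library of both sorted populations. The log2 difference was 2.99 (SE 0.50, adjusted p = 1.20e-04) in polysomal and 3.38 (SE 0.56, adjusted p = 1.26e-04) in total RNA for LY6G minus BM, by edgeR. For LY6C minus BM it was 3.76 (SE 0.52, adjusted p = 2.03e-05) in polysomal and 3.53 (SE 0.56, adjusted p = 1.05e-04) in total RNA.

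Chil3 (ENSMUSG00000040809, chromosome 3, 106147554 to 106167564, minus strand) encodes the chitinase-like lectin Ym1, made by maturing neutrophils and by macrophages. The sources used here do not give how reads shared with its close paralog Chil4 were counted. It had 331, 473 and 282 CPM in LY6G polysomal RNA and 446, 1486 and 889 CPM in LY6C polysomal RNA, against 106, 69.4 and 73.4 CPM in BM. Total RNA had 260.4, 388 and 145 CPM in LY6G and 353, 934 and 231 CPM in LY6C, against 33.9, 37.6 and 10.3 CPM in BM. Again no sorted-cell library overlapped a BM library. By edgeR the log2 difference from BM was 2.12 (SE 0.54, adjusted p = 0.00424) in polysomal and 3.27 (SE 0.60, adjusted p = 3.54e-04) in total RNA of LY6G. In LY6C it was 3.50 (SE 0.57, adjusted p = 1.15e-04) in polysomal and 4.20 (SE 0.61, adjusted p = 5.02e-05) in total RNA. All 4 calls of Lcn2, all 4 of Chil3 and both calls of S100a8 in total RNA held under each alternative tried, with each library left out in turn among them. Macrophage markers were also higher in sorted cells: the sum of 7 such markers, each of them detected in every group, ran from 521 to 977 CPM in LY6G polysomal, 436 to 503 in LY6G total, 287 to 786 in LY6C polysomal and 213 to 577 CPM in LY6C total RNA, against 115 to 120 CPM in BM polysomal and 52.9 to 88.4 CPM in BM total RNA. Their part in the Lcn2 and Chil3 differences was not tested.

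Retnlg had the lowest CPM of the 10 genes in every sorted-cell library. It encodes resistin-like gamma, a secreted protein of mature neutrophils (ENSMUSG00000022651, chromosome 16, 48872621 to 48874496, plus strand). It had 1.33, 1.08 and 4.76 CPM in LY6G polysomal and 1.64, 3.25 and 1.80 CPM in LY6C polysomal libraries, against 67.9, 31.8 and 45.3 CPM in BM. Total RNA had 1.62, 1.09 and 5.05 CPM in LY6G and 1.74, 4.55 and 2.74 CPM in LY6C, against 10.6, 14.7 and 10.3 CPM in BM. Each sorted-cell library was below each BM library, in both fractions. Polysomal Retnlg was 20.3-fold lower in LY6G, with a log2 difference of -4.35 (SE 0.65, adjusted p = 4.18e-05), and 21.8-fold lower in LY6C, with -4.45 (SE 0.65, adjusted p = 4.88e-05), by edgeR. In total RNA the difference was -2.21 (SE 0.76, adjusted p = 0.0329) for LY6G minus BM and -2.02 (SE 0.76, adjusted p = 0.0545) for LY6C minus BM. The LY6C total difference passed under DESeq2 (adjusted p = 0.00434) and, by edgeR, with median-ratio factors (0.0274), protein-coding scaling (0.0247), no filter (0.00266), the number as a block (0.0337) and without LY6C number 3 (0.0307). The LY6G total call was lost without LY6G number 2 or 3 (adjusted p = 0.0803 and 0.0792, edgeR) and without BM number 1, 2 or 3 (adjusted p = 0.0614, 0.141 and 0.0596, edgeR).

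Cxcr2 (ENSMUSG00000026180, chromosome 1, 74153989 to 74161246, plus strand) encodes the receptor that calls mature neutrophils out of the marrow. It ran from 9.38 to 26.2 CPM over the LY6G libraries and from 10.8 to 25.4 CPM over the LY6C libraries of both fractions, against 13.4, 4.63 and 6.32 CPM in BM polysomal RNA. BM total RNA held 0, 5 and 0 Cxcr2 counts in its 3 libraries, so the value there rests on 1 library. The log2 difference in total RNA was 2.19 (SE 0.81, adjusted p = 0.0451) for LY6G and 2.53 (SE 0.80, adjusted p = 0.0222) for LY6C minus BM by edgeR. The LY6G call was lost without LY6G number 2 or 6 or BM number 1 or 3, where the edgeR adjusted p was 0.0748, 0.0838, 0.199 and 0.205. The LY6C call was lost without LY6C number 2 or BM number 1 or 3, where it was 0.0542, 0.119 and 0.123. Both calls were also lost with median-ratio factors (adjusted p = 0.0730 and 0.0540, edgeR) and with protein-coding scaling (0.100 and 0.0668), and the LY6G call with the compared groups alone (0.0713). In polysomal RNA the difference was 1.01 for LY6G and 1.18 for LY6C minus BM and did not pass (edgeR adjusted p = 0.135 and 0.0946). It passed for both under DESeq2 (adjusted p = 0.0401 and 0.0440) and with no filter (0.0238 and 0.0186, edgeR), and for LY6C with the number as a block (0.0412) or without LY6C number 6 (0.0469).

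Wfdc21 (ENSMUSG00000051748, chromosome 11, 83746940 to 83752642, plus strand), a member of the WAP four-disulfide core family of secreted proteins, passed in no comparison by the edgeR fit defined at the start. It had 49.5, 31.6 and 30.4 CPM in LY6G polysomal, 47.8, 45.2 and 32.8 CPM in LY6C polysomal and 19.4, 29.5 and 17.9 CPM in BM polysomal RNA. Total RNA had 42.5, 27.8 and 21.8 CPM in LY6G and 46.7, 32.5 and 6.98 CPM in LY6C, against 6.35, 14.7 and 16.5 CPM in BM. Its largest log2 difference was 1.28 for LY6G minus BM in total RNA (SE 0.57, edgeR adjusted p = 0.100), where the 3 LY6G libraries lay above the 3 BM libraries. Under other edgeR fits that difference passed with no filter on low counts (adjusted p = 0.0370) and with the number as a block (0.0324). LY6C minus BM passed by edgeR in total RNA without LY6C number 6 (adjusted p = 0.0162) and in polysomal RNA with the block (0.0457).

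Ltf, Camp and Ngp, the remaining genes of the secondary granule, lie within 1.195 Mb of chromosome 9 and were correlated with each other over the sorted-cell libraries. Ltf (ENSMUSG00000032496, 111019271 to 111042767, plus strand) encodes lactotransferrin, which binds iron. Camp (ENSMUSG00000038357, 109847379 to 109849617, minus strand) encodes the antimicrobial cathelicidin, and Ngp (ENSMUSG00000032484, 110419747 to 110423012, plus strand) the cystatin-like neutrophilic granule protein. Their promoters are shown because of this shared pattern, as RefSeq windows on GRCm38.p6 with the C/EBP core in capitals as above: chr9:111019042-111019341 on the plus strand, chr9:109849407-109849706 on the minus strand and chr9:110419558-110419857 on the plus strand.
Ltf: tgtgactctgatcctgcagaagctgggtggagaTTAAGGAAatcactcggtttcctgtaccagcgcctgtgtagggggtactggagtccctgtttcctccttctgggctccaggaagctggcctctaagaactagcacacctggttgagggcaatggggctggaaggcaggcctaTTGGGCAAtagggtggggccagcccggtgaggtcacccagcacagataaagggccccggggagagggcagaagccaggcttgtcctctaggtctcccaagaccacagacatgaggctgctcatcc
Camp: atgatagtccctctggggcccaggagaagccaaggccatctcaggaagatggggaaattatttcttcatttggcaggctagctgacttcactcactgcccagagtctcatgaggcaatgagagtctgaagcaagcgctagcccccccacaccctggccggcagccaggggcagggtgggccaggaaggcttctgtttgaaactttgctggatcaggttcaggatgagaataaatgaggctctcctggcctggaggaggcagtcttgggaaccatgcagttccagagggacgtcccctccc
Ngp: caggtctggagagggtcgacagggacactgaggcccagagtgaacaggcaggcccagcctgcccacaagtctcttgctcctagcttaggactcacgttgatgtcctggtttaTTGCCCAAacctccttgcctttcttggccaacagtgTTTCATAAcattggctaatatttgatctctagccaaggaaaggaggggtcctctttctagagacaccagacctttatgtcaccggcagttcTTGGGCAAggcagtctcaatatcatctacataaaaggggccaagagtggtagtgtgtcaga
The Ltf window held 2 matches to TTNNGNAA, at 217 and 75 bases before the start, and the Ngp window held 3, at 138, 102 and 11 bases before the start. The Camp window held none of the 3 motifs.

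In polysomal RNA, Ltf had 132, 238 and 85.9 CPM in LY6G numbers 2, 3 and 6, against 213, 1493 and 291 CPM in the LY6C libraries of the same numbers. In total RNA it had 96.2, 174 and 38.8 CPM in LY6G, against 159.5, 1202 and 129 CPM in LY6C. LY6C number 3 was the highest library of its fraction. BM had 271, 319.7 and 301 CPM in polysomal and 161, 142 and 254 CPM in total RNA. Camp had 27.3, 33.3 and 13.03 CPM in LY6G and 22.8, 232 and 62.7 CPM in LY6C polysomal RNA, against 282, 218 and 183 CPM in BM. In total RNA it had 18.6, 32.2 and 8.43 CPM in LY6G and 17.9, 279 and 22.9 CPM in LY6C, against 71.98, 60.6 and 37.2 CPM in BM. All LY6G libraries lay below all BM libraries of their fraction, and in LY6C only number 3 reached the level of BM. Ngp had 118, 144 and 59.04 CPM in LY6G and 194, 725 and 264 CPM in LY6C polysomal RNA, against 463, 263 and 319 CPM in BM. In total RNA it had 88.01, 129 and 33.6 CPM in LY6G and 145, 557 and 55.9 CPM in LY6C, against 116, 128 and 105 CPM in BM. The 3 LY6G polysomal libraries lay below all LY6C and all BM polysomal libraries, and Ngp was the 1 gene of the 10 whose LY6G and LY6C libraries did not overlap, beside 7.05% of all tested genes with LY6G below.

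Against BM, only Camp in LY6G polysomal RNA was called among these 3 genes by the edgeR fit defined at the start. Its log2 difference was -3.21 (SE 1.00, adjusted p = 0.0193) by edgeR, and the call was lost without LY6G number 2 (adjusted p = 0.0580) or number 6 (0.0772). Ngp missed with -1.71 (SE 0.68, adjusted p = 0.0578) in the same comparison, and was called there under DESeq2 with -1.49 (adjusted p = 0.0441). By edgeR, Ngp was also called there with protein-coding scaling (0.0390), no filter (0.00186), the compared groups alone (0.00346) and the number as a block (0.0394). Ltf had -0.97 (SE 0.83, adjusted p = 0.367) by edgeR, and was called with the compared groups alone (0.0437). Camp in LY6G total RNA was called lower by edgeR with no filter (0.0076) and the compared groups alone (0.0393). Ltf in LY6C was called higher by edgeR with no filter, in polysomal (0.0174) and total RNA (0.00813). In LY6C the direction depended on number 3: without that library the difference from BM in total RNA was -0.42 for Ltf, -1.55 for Camp and -0.26 for Ngp, against 1.42, 0.91 and 1.11 with it.

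The comparison of LY6G with LY6C asks whether the 2 sorted populations differ in these genes. By edgeR none of the 10 genes was called in polysomal or in total RNA, and 0.0% of all tested genes were. At an unadjusted p under 0.05 there were 4 of the 10 in polysomal RNA, Ltf, Camp, Ngp and Chil3, and 3 in total RNA, Ltf, Camp and Ngp, all lower in LY6G, beside 5.87% of all tested genes in polysomal and 3.98% in total RNA. DESeq2 called none of the 10 either. With no filter on low counts edgeR called Ltf and Camp in both fractions and Ngp in polysomal RNA, all lower in LY6G, beside 0.312% of all 28211 genes in polysomal and 0.269% in total RNA. The point estimates were lower in the cells sorted for Ly6G for 9 of the 10 genes in each fraction, with medians of -0.68 in polysomal and -0.38 in total RNA, against -0.03 and 0.00 over all tested genes. The largest were -2.13 (SE 0.85) for Ltf, -2.11 (SE 0.95) for Camp and -1.88 (SE 0.68) for Ngp in polysomal RNA. In total RNA they were -2.27 (SE 0.86), -2.43 (SE 0.96) and -1.59 (SE 0.68). Chil3 had -1.38 (SE 0.52) in polysomal and -0.94 (SE 0.52) in total RNA.

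Libraries of the sorted cells that share a number deviated together, so LY6G was also set against LY6C within each number. For Ltf the log2 CPM difference was -0.69, -2.65 and -1.76 in numbers 2, 3 and 6 of polysomal RNA and -0.73, -2.78 and -1.74 of total RNA. For Ngp it was -0.72, -2.33 and -2.16 in polysomal and -0.72, -2.11 and -0.73 in total RNA, and for Chil3 -0.43, -1.65 and -1.65 in polysomal and -0.44, -1.27 and -0.67 in total RNA. These 3 genes were lower in LY6G in every number and both fractions. Camp was lower in numbers 3 and 6 only, at 0.26, -2.80 and -2.27 in polysomal and 0.06, -3.12 and -1.44 in total RNA. S100a8 and S100a9 had no common sign, at 0.30, -0.91 and -0.22 for S100a8 and 0.41, -1.36 and 0.11 for S100a9 in polysomal RNA. Lcn2 was at -0.38, -0.88 and -0.86 in polysomal and -0.43, -0.32 and 0.24 in total RNA. With the number as a block the edgeR fit again called none of the 10.

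Number 3 carried the largest differences: all 10 genes were lower in LY6G there in both fractions, with medians of -1.48 in polysomal and -1.17 in total RNA. The medians for number 2 were -0.34 and -0.28, and those for number 6 were -0.54 and 0.17. The 5 promyelocyte markers Mpo, Elane, Prtn3, Ctsg and Ms4a3, each detected in every LY6C library, were also high in the LY6C libraries of number 3. Their sum was 435 CPM in the polysomal and 334 CPM in the total LY6C library of number 3, against 10.2 to 49.5 CPM in the other LY6C libraries and 6.82 to 37.4 CPM in all LY6G libraries, and BM had 110 to 280 CPM. Without the LY6C library of number 3 the LY6G minus LY6C difference in polysomal RNA was -0.73 for Ltf, -0.79 for Camp, -1.10 for Ngp and -0.88 for Chil3. In total RNA it was -0.47, -0.02, -0.27 and -0.14 for the same genes. The LY6C libraries of number 3 also had the lowest share of protein-coding counts in their fraction among sorted cells, and the total one the highest share of mitochondrial rRNA. Mitochondrial rRNA made up 3.22, 18.8 and 13.2% of counts in LY6G total libraries 2, 3 and 6 and 1.66, 30.6 and 23.96% in LY6C ones. In polysomal libraries it was 0.748, 1.52 and 0.313% in LY6G and 0.409, 2.12 and 4.65% in LY6C, where number 6 was highest. Protein-coding genes took 92.6, 91.3 and 94.6% of counts in LY6G polysomal, 89.5, 71.9 and 78.1% in LY6G total, 93.7, 66.7 and 72.4% in LY6C polysomal and 93.4, 37.3 and 54.5% in LY6C total libraries 2, 3 and 6. The parts of promyelocytes and of these shares in the differences were not tested.

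**Figure D4:**
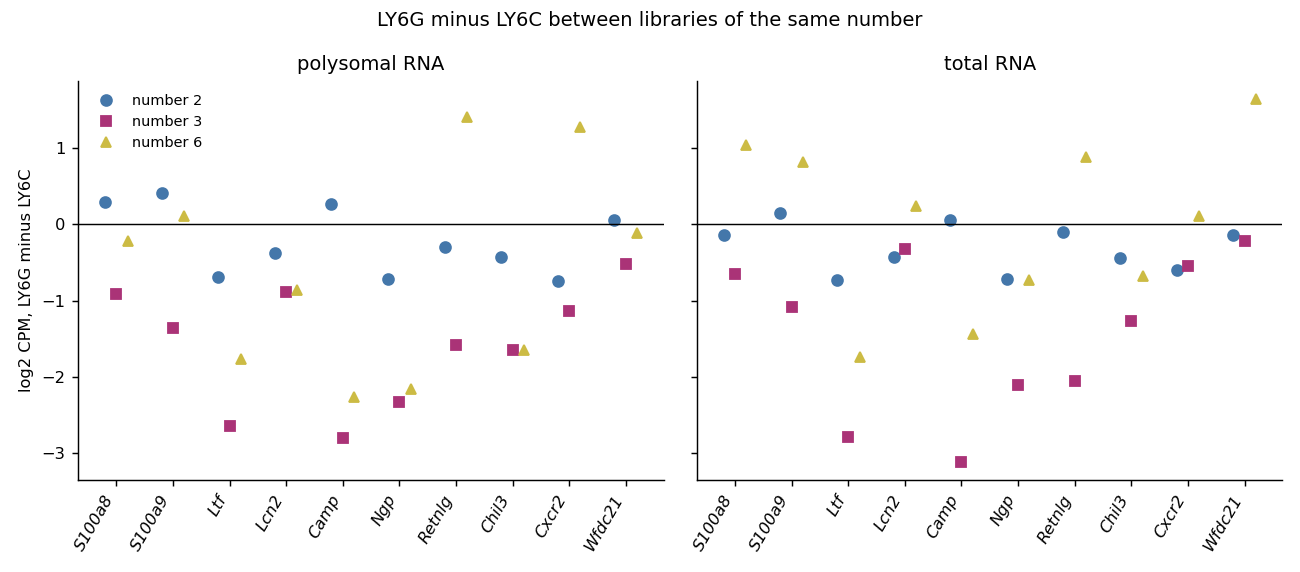
Log2 CPM of LY6G minus LY6C between libraries that carry the same number, for polysomal RNA on the left and total RNA on the right, with 1 point for each of the numbers 2, 3 and 6. Ltf, Ngp and Chil3 lie below 0 for every number in both fractions, and number 3 lies below 0 for all 10 genes.

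Within the sorted cells the 10 genes fell into a correlated set and genes apart from it. Over the 12 sorted-cell libraries, which come from 6 sorted cultures in pairs of fractions, log2 CPM of Ltf had a Pearson correlation of 0.97 with Camp, 0.96 with Ngp and 0.95 with Chil3, and Ngp one of 0.97 with Chil3. S100a8 and S100a9 had 0.89 with each other, and S100a8 had 0.85 with Wfdc21. Lcn2 stood apart, with correlations between -0.08 and 0.34. Cxcr2 had -0.21 to 0.48 and Retnlg -0.29 to 0.48. The genes most like the mean of the 9 genes with at least 10 CPM, among 4285 others at that level, were Cdkn2d (0.99), Cacybp (0.98), Tcp1 (0.98), Tars (0.98) and Dynll2 (0.98), by the same correlation over the same 12 libraries.

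Per kilobase of exon, S100a9 had the highest mean level of the 10 genes in all 6 groups, though not in every library, and the order below it differed between sorted cells and BM. In LY6G polysomal RNA the levels were 514 ± 98.8 CPM per kb for S100a9, 388 ± 70.5 for S100a8 and 222 ± 60.6 for Chil3. Lcn2 at 96.3 ± 58.3, Ngp at 87.5 ± 35.6 and Wfdc21 at 85.7 ± 24.7 followed, in an order that changed between libraries. Ltf at 44.1 ± 22.7 CPM per kb was above Camp at 32.4 ± 13.7 in each library. Numbers 2, 3 and 6 had 38.3, 69.1 and 24.9 CPM per kb for Ltf, against 36.0, 43.9 and 17.2 for Camp. Cxcr2 and Retnlg were lowest. In LY6C polysomal RNA S100a9 had 773 ± 664, Chil3 576 ± 319.6 and S100a8 499 ± 243 CPM per kb. S100a9 was above S100a8 in each library, at 406, 1539 and 375 against 358, 780 and 358 CPM per kb in numbers 2, 3 and 6. The place of Chil3 changed: it was below S100a8 in number 2, at 273, and above S100a9 in number 6, at 545 CPM per kb. In BM polysomal RNA S100a9 had 1554 ± 523, Camp 300.3 ± 66.1 and Ngp 285 ± 84.5 CPM per kb. The order of Camp and Ngp changed between libraries. S100a8 followed at 202 ± 43.6, Ltf at 86.2 ± 7.09, Retnlg at 81.5 ± 30.7, Wfdc21 at 51.3 ± 14.5, Chil3 at 50.9 ± 12.4 and Lcn2 at 12.2 ± 5.76 CPM per kb. Of the counts of the 10 genes, S100a9 made up 7.06 to 21.5% in a sorted-cell library and 30.8 to 43.9% in a BM library, and Chil3 made up 19.0 to 32.0% in a sorted-cell library and 1.52 to 5.26% in a BM library.

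Polysomal against total RNA asks which messages are loaded with ribosomes out of proportion to their level. By edgeR none of the 10 genes was called in LY6G or LY6C, where 0.0% of all tested genes were called, and none in BM, where 3.39% were. At an unadjusted p under 0.05 there were 0 of the 10 in LY6G, 1 in LY6C (Lcn2) and 5 in BM, beside 1.79%, 3.05% and 19.5% of all tested genes, and DESeq2 called none of the 10 in any of the 3. In BM all 10 point estimates were above 0, from 0.68 to 2.02, with a median of 1.59, against 0.55 over all tested genes as fitted and 0.00 with genes at 0 in a group set at their bound. The 3 polysomal libraries lay above the 3 total libraries for 8 of the 10 genes, beside 19.5% of all tested genes. S100a8 came nearest to a call, with 1.97 (SE 0.57, adjusted p = 0.0591) by edgeR, then S100a9 with 1.77 (SE 0.58, adjusted p = 0.0965). Retnlg had 2.02 (SE 0.71, adjusted p = 0.117), Chil3 1.60 (SE 0.58, adjusted p = 0.124), Camp 2.01 (SE 0.99, adjusted p = 0.284) and Ngp 1.58 (SE 0.70, adjusted p = 0.218), while Ltf had 0.68 (SE 0.84). The count called there changed with the fit: 6 with the BM libraries fitted alone, beside 2.68% of all tested genes, and 5 with no filter on low counts, beside 1.72%. Scaling moved these values too: the median over all genes was 0.13 with median-ratio factors and the S100a8 difference 1.54.

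The medians of polysomal minus total RNA over the 10 genes were 0.33 in LY6G and 0.45 in LY6C, against 0.00 and 0.01 over all tested genes. Between libraries of the same number, the medians of the log2 CPM differences were uneven. They were 0.31, 0.14 and 0.72 in LY6G and 0.10, 0.39 and 1.70 in LY6C, for numbers 2, 3 and 6. In LY6C the largest was Lcn2, with 1.24 (SE 0.46, adjusted p = 1) by edgeR, where the 3 polysomal libraries lay above the 3 total ones, beside 3.67% of all tested genes. Within numbers 2, 3 and 6 of LY6C, Lcn2 had log2 CPM differences of 0.09, 0.83 and 2.14, so number 6 had the largest. Retnlg was below 0 in both sorted populations, at -0.12 (SE 0.57) in LY6G and -0.41 (SE 0.59) in LY6C. The difference of polysomal minus total between sorted cells and BM was called for none of the 10, beside 0.416% of all tested genes for LY6G minus BM and 0.338% for LY6C minus BM, and none was called between LY6G and LY6C, beside 0.0%. At an unadjusted p under 0.05 there were 2 of the 10 for LY6G minus BM, 1 for LY6C minus BM and 0 for LY6G minus LY6C by edgeR, beside 14.2%, 13.8% and 0.0494% of all tested genes, and DESeq2 called none.

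**Figure D5:**
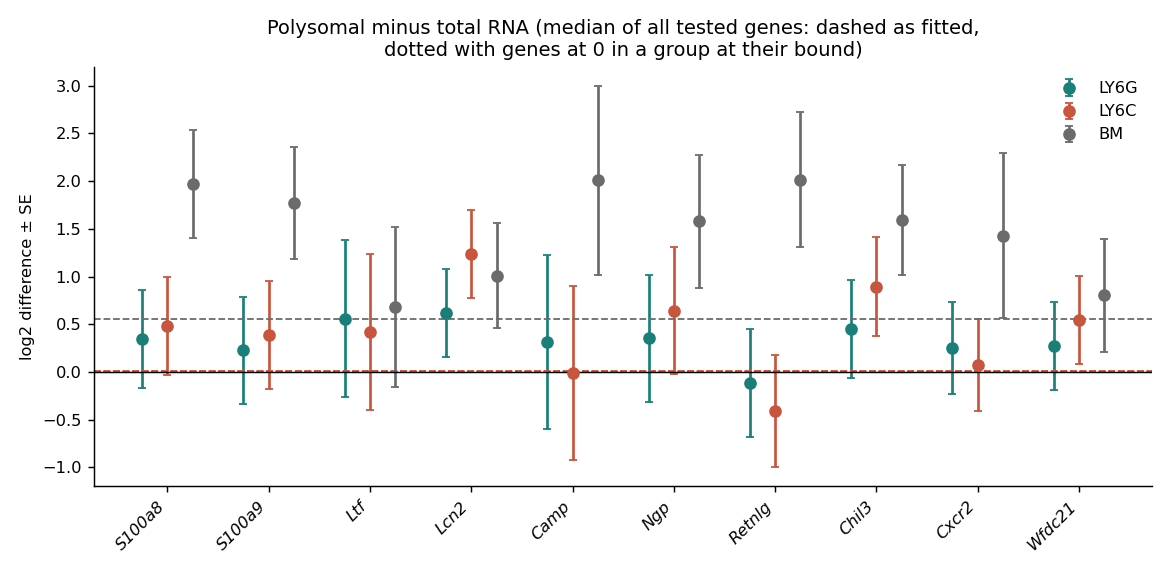
Fitted log2 difference of polysomal minus total RNA with its standard error for each gene in LY6G, LY6C and BM; dashed lines are the medians of all tested genes as fitted and dotted lines those with genes at 0 in a group at their bound. The BM points lie between 0.68 and 2.02, all above 0, and those of sorted cells between -0.41 and 1.24; no point had an adjusted p under 0.05.

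Other genes of the same programme were set beside the 10. Of 12 tested genes of the specific and gelatinase granules, 4 were higher and 2 lower in LY6G than in BM polysomal RNA, and 6 higher and 1 lower in LY6C, with medians of 0.79 and 1.64. All tested genes had 22.1% higher and 15.3% lower in LY6G, and 20.2% higher and 11.2% lower in LY6C. Mmp8, the neutrophil collagenase, had 179.8 ± 22.5 CPM in LY6G and 166 ± 78.1 CPM in LY6C polysomal RNA, against 16.8 ± 4.86 CPM in BM (log2 difference 3.43 and 3.31). Fcnb, ficolin B, had 4.44 ± 2.23 CPM in LY6G, against 47.1 ± 7.97 CPM in BM. Of 21 tested late maturation genes, 12 were higher and 3 lower in LY6G, and 12 higher and 1 lower in LY6C, in polysomal RNA, with medians of 3.70 and 3.52 as fitted and 3.40 and 3.52 with 2 genes at 0 in BM set at their bound. Of those called at 10 CPM or more without overlap, the largest LY6G differences were all higher, in Ccr1, BC100530, Clec4e and Il1r2. Ccr1 had 84.7 ± 5.68 CPM in LY6G, against 0.761 ± 1.32 CPM in BM, and BC100530 12.4 ± 7.13 against 0.190 ± 0.329 CPM. Il1r2, the decoy receptor for interleukin 1, had 55.3 ± 8.20 CPM in LY6G, against 1.995 ± 1.24 CPM in BM, and Clec4e, the lectin Mincle, 47.9 ± 20.6 against 1.75 ± 0.520 CPM. Macrophage markers were higher in sorted cells too, and their part in these differences was not tested. In total RNA 8 of the 21 were higher and 1 lower in LY6G, and 11 higher and none lower in LY6C, beside 21.5% higher and 9.39% lower in LY6G and 20.5% and 7.4% in LY6C over all genes.

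The same shares of all genes stand beside the counts that follow in polysomal RNA, 22.1% higher and 15.3% lower in LY6G and 20.2% and 11.2% in LY6C. Of 8 primary granule genes 2 were higher and 1 lower in LY6G than in BM polysomal RNA, and 2 higher and none lower in LY6C, with medians of -1.44 and 1.45 as fitted and -1.44 and 0.82 with 1 gene at its bound. Ctsc, the protease that activates granule enzymes, had 263 ± 54.03 CPM in LY6G and 317 ± 177 CPM in LY6C, against 8.50 ± 0.732 CPM in BM. Mpo, myeloperoxidase, had 6.39 ± 1.57 CPM in LY6G, against 191 ± 37.3 CPM in BM. Of 10 transcription factors of granulopoiesis, 3 were higher and 5 lower in LY6G, and 3 higher and 1 lower in LY6C, in polysomal RNA. Cebpb, the factor of emergency granulopoiesis, had 258 ± 78.3 CPM in LY6G and 245 ± 73.1 CPM in LY6C, against 24.1 ± 2.40 CPM in BM. Gfi1, which represses monocytic genes, had 1.41 ± 0.424 CPM in LY6G, against 14.8 ± 0.968 CPM in BM. No gene of these lists was called between LY6G and LY6C by edgeR.

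Partners of the encoded proteins were counted last. Of 7 tested receptors 6 were higher and 1 lower than BM in polysomal RNA of each sorted population, with medians of 2.57 in LY6G and 2.69 in LY6C, beside 22.1% and 20.2% of all genes higher. Tlr4, the receptor of S100a8 and S100a9, had 37.9 ± 1.47 CPM in LY6G and 19.4 ± 11.3 CPM in LY6C, against 0.832 ± 0.476 CPM in BM. Lrp1, a receptor of lactotransferrin, had 564 ± 119 CPM in LY6G and 653 ± 542 CPM in LY6C, against 85.7 ± 16.9 CPM in BM. Of 6 tested CXCR2 ligands 3 were higher in each sorted population, Cxcl2, Cxcl3 and Mif, and none lower. Cxcl3 was uneven, with 119 ± 139 CPM in LY6G and 118 ± 175 CPM in LY6C and no count in BM polysomal RNA, so that it was at least 320.1-fold higher in LY6G by its mean against 3 counts over the 3 BM libraries.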

How the data were processed

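RNA from 18 libraries was sequenced after ribosomal depletion with a stranded kit. The authors deposited raw counts per gene, unnormalized. The submitters' processing notes name FastQC, STAR 2.5.2a, DESeq and DESeq2 with GRCm38 (mm10); the counting program, annotation and strand setting are not given in the sources used here. GENCODE M21 named 54809 of 54838 identifiers. None of the 10 genes overlaps another annotated gene.

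Counts were fitted with edgeR 4.0.16 (R 4.3.3): filterByExpr with a minimum count of 10, TMM factors, 1 model of 6 groups, robust quasi-likelihood tests, adjusted within each of 12 comparisons. The common dispersion was 0.163. CPM used these factors, with a prior count of 2 for correlations. One CPM equalled 0.472 to 110 counts. The bounds cover counting error only, while the standard errors come from the fit and include variation between libraries. Sets of genes were described by counts and medians. A named gene of a list was called, had at least 10 CPM in the higher group and did not overlap. The 10 genes and the lists were chosen with earlier results of these data known.

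Sorted-cell libraries sharing a number correlated in their deviations from the group mean (0.27, 0.38 and 0.47 between LY6G and LY6C polysomal libraries, 0.42, 0.45 and 0.59 between their total libraries, and 0.56 to 0.74 between fractions), so the numbers of the sample titles pair them. In BM the correlations were 0.03, 0.01 and 0.00, and pairing is not shown. The fit without a block was kept. Alternatives were DESeq2 1.42.0, median-ratio factors, protein-coding scaling, no filter, compared groups alone, a block and leaving out each library. Leaving out number 6 or number 3 of the sorted cells was chosen after seeing the data. Where 1 library of a group is left out, its spread is shared with the other groups.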

Additional observations from a re-analysis of the deposited data

Results flagged for a closer look

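Retnlg was singled out because polysomal and total RNA stood in opposite order in the sorted cells and in BM. In LY6G the polysomal minus total log2 CPM was -0.29, -0.02 and -0.09 in numbers 2, 3 and 6, and in LY6C -0.09, -0.48 and -0.61, below 0 each time. In BM it was 2.68, 1.11 and 2.13 in numbers 1, 2 and 3, above 0 each time. The mean of these differences in LY6G minus that in BM was -2.11, and the mean in LY6C minus that in BM was -2.37. The edgeR test of the difference itself gave -2.13 (SE 0.91, adjusted p = 0.291) for LY6G minus BM and -2.43 (SE 0.92, adjusted p = 0.242) for LY6C minus BM, so neither passed. A value below 0 was not particular to Retnlg. It was shared by all 10 genes for LY6G minus BM and by 9 of them for LY6C minus BM, with medians of -1.20 and -1.15. Over all tested genes the fitted medians were -0.65 and -0.64. Retnlg had 5, 9 and 5 counts in the BM total libraries, and the BM numbers are not shown to pair libraries.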

How the results depend on the processing

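Of 840 other values computed for 70 differences of the 10 genes, 732 kept their direction and side of the threshold, 28 reversed, 25 lost a call and 55 gained one. The calls of S100a8 (total RNA), Lcn2 and Chil3 (both fractions) and Retnlg (polysomal RNA) against BM were kept under each alternative in both sorted populations. Shares of all genes called in the same fit stand in brackets. With no filter on low counts the number of the 10 called was 3 in polysomal (0.312%) and 2 in total RNA (0.269%) for LY6G minus LY6C, 8 for LY6G (24.000000%) and 6 for LY6C (20.3%) minus BM in polysomal RNA, and 5 for polysomal minus total in BM (1.72%). Fitting the compared groups alone gave 8 for LY6G minus BM in polysomal RNA (40.2%) and 6 for polysomal minus total in BM (2.68%), and DESeq2 gave 5 for LY6C minus BM in polysomal RNA (39.5%). With the number as a block (pairing not shown in BM, nor between sorted cells and BM) they were 6 for LY6C minus BM in polysomal RNA (34.4%) and 4 for polysomal minus total in BM (5.41%), and the block moved no other count by over 1.5 times. Without number 6 of the sorted cells, 7 were called for LY6C minus BM in total RNA (21.2%) and 2 for polysomal minus total in BM (1.65%). Without number 3, 5 were called for LY6C minus BM in polysomal RNA (25.2%) and 2 for polysomal minus total in BM (0.912%). Leaving out 1 library gave 3 to 5 for LY6G minus BM in polysomal and 3 to 4 in total RNA.

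S100a9 for LY6G minus BM in total RNA reversed to 0.028 with no filter and 0.40 with the block, and Retnlg for LY6G minus LY6C in polysomal RNA to -0.19 with the block. Protein-coding scaling turned LY6C minus BM to -0.059 for S100a9 in total and -0.062 for Ngp in polysomal RNA. Leaving out 1 library reversed some values, none of them called in the fit of all libraries. For LY6C minus BM in total RNA the ranges were from -1.55 to 1.43 for Camp, from -0.42 to 1.86 for Ltf, from -0.26 to 1.49 for Ngp and from -0.72 to 0.71 for S100a9, and in polysomal RNA from -0.21 to 1.61 for Ltf and from -0.58 to 0.53 for Ngp. For LY6G minus BM in total RNA S100a9 ranged from -0.25 to 0.16. For LY6G minus LY6C the ranges in polysomal RNA were from -0.63 to 0.13 for Cxcr2, from -0.88 to 0.48 for Retnlg, from -0.55 to 0.12 for S100a8 and from -0.92 to 0.40 for S100a9. In total RNA they were from -1.11 to 0.24 for Retnlg, from -0.68 to 0.33 for S100a8, from -0.82 to 0.62 for S100a9 and from -0.37 to 0.64 for Wfdc21. The causes were not tested.

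Scaling moved the median of all genes: with median-ratio factors it was 0.68 and 1.49 for LY6G minus BM in polysomal and total RNA, 0.58 and 1.36 for LY6C minus BM, 0.13 and 0.15 for LY6G minus LY6C and 0.13 for polysomal minus total in BM. BM total RNA, where 1 CPM is 0.472 to 0.611 counts, limits every comparison that uses it.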
